A study of Chrysanthemum x morifolium with 40 samples.

Results

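The roots of EWT, a waterlogging-tolerant cultivar of the tea chrysanthemum 'Hangju' (Chrysanthemum × morifolium, a polyploid member of the daisy family), were compared after 3 h of waterlogging with the same cultivar before treatment (0 h). The comparison took the 8 libraries whose labels give genotype EWT with 00h or 03h, 4 replicates at each time, out of 40 RNA-seq libraries in the series. EWT stands for Enhanced Waterlogging Tolerance, and the other cultivar in the series, CK ('zaoxiaoyangju', waterlogging-sensitive), was sampled at the same times. Whole seedlings, 8 weeks old, were covered with water to 2 cm above the upper leaves, and the root RNA was taken. There was no unflooded group at 3 h, so submergence cannot be told apart from the time of day and from the handling of the plants. Nothing in the labels says that the 4 replicates came from separate plants, so the p-values below measure the spread between libraries. In the main fit that spread was pooled over the groups of all 40 libraries, not taken from these 8 alone.

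The table held 178540 genes in FPKM (fragments per kilobase of gene, scaled to a size taken for each library). A gene was tested when it reached 1 FPKM in 4 or more of the 40 libraries, which left 89517 genes. Differences were fitted with limma on log2(FPKM + 0.1), giving each of the 10 combinations of cultivar and time its own mean, and a gene was called, that is, said to have risen or fallen, at a Benjamini-Hochberg adjusted p of at most 0.05 and a change of at least 2-fold. All fold changes are on that log2(FPKM + 0.1) scale, which understates the change of genes near 0, and the error given after a fold change is its standard error. The fragments counted on genes were 7925058 to 9929777 per library at 0 h and 8147779 to 9729533 at 3 h. Across the tested genes, libraries of the same time correlated with r from 0.909 to 0.930 and libraries of different times with r from 0.766 to 0.810. Gene names are the authors' best matches to proteins of other species, so each role given below is the role of the matched protein. Many genes are present as several near-identical copies, and the handling of reads that copies share is not stated, so the value of a single copy is uncertain.

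The tissue label was checked against markers of root and leaf. The root list (Casparian strip membrane proteins, the root patterning factors SCARECROW and SHORT-ROOT, and high-affinity nitrate transporters) summed to 602 to 858 FPKM at 0 h and 1254.5 to 1514 FPKM at 3 h. High-affinity nitrate transporters alone summed to 516 to 723 FPKM at 0 h and 1204 to 1428 FPKM at 3 h. They made up most of the list's sum, so that sum says little about the other root members. The mean sum went from 731 to 1398 FPKM for the list and from 622 to 1322 FPKM for these transporters. The other members together thus had a lower mean sum at 3 h. Of the 54 tested members of the list 7 rose and 5 fell, and of the 28 tested transporters 7 rose and 3 fell, so no other root member was called higher. The leaf list (chlorophyll a-b binding proteins, Rubisco small subunits, photosystem subunits and phosphoribulokinase) summed to 68.1 to 103 FPKM at 0 h and 131 to 179 FPKM at 3 h. Of its 249 members, 91 were at 0 in all 8 libraries, while 13 of the 82 tested rose and 2 fell. A Rubisco small subunit (evm_TU_scaffold_24_314) was at 2.31, 3.69, 3 and 4.1 FPKM at 0 h and 26.9, 22.3, 77.4 and 22.9 FPKM at 3 h, highest in replicate 3 at 3 h, and rose (log2 fold change 3.29 ± 0.39, adjusted p = 2.7e-08). The part of leaf-type RNA in the results below was not tested. In a whole root, fewer cells of a type and less RNA per cell cannot be told apart either.

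Plants sense low oxygen through the N-degron pathway. Plant cysteine oxidases use oxygen to mark group VII ethylene response factors for degradation, and when oxygen is short these factors accumulate in the nucleus and switch on a core set of genes for fermentation, sucrose breakdown and oxygen scavenging. In flooded roots the gaseous hormone ethylene is trapped by the surrounding water, which adds a second signal.

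In EWT roots, 19356 genes (21.6% of those tested) were called after 3 h, of which 8020 rose (8.96%) and 11336 fell (12.7%). The median log2 fold change over all tested genes was -0.13. It was -0.26 when each library was scaled to all its fragments on genes and -0.28 in a voom fit to the recovered fragments. Changes are to be read against these shifts. The rises reached further than the falls, with 194 genes at least 64-fold higher and 41 at least 64-fold lower. Genes with no protein match made up 36.8% of those that rose (2953 genes), 22.4% of those that fell (2534 genes) and 37.8% of those tested (33796 genes).

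**Figure D1:**
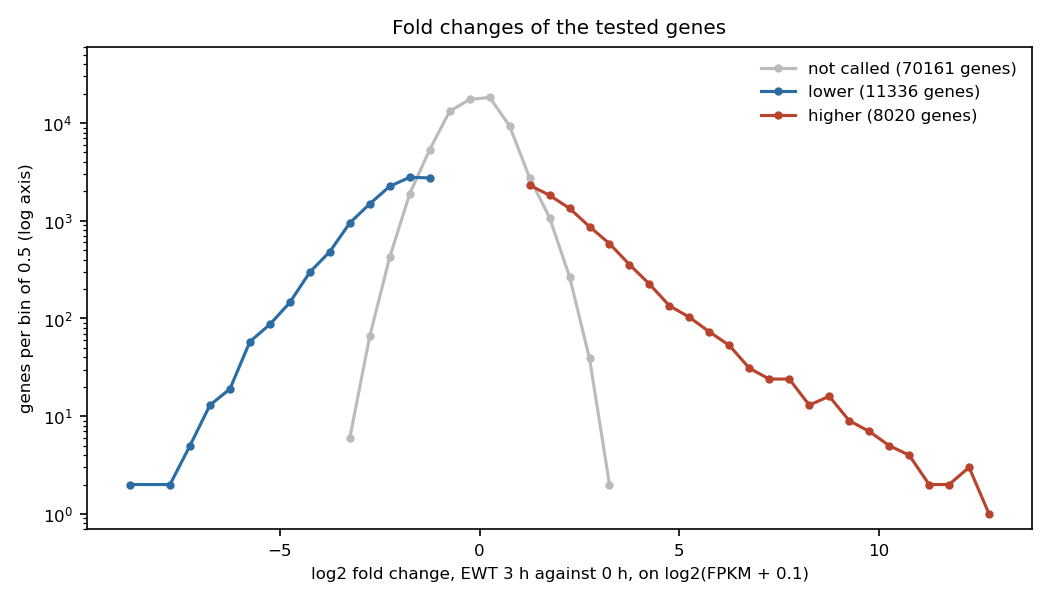
Number of tested genes (log axis) in each bin of 0.5 of the log2 fold change, EWT 3 h against 0 h, drawn separately for genes called higher, called lower and not called. The 8020 genes called higher reach beyond a log2 fold change of 12, while the 11336 called lower end near -9.

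Among genes with a protein name, a mean of at least 5 FPKM in the higher group and no overlap between the times, taken once per name, the 10 largest rises were headed by a stearoyl-[acyl-carrier-protein] 9-desaturase (evm_TU_scaffold_1121_86, chromosome 5, 107776118 to 107777985, minus strand), an enzyme that puts the first double bond into plastid fatty acids. It was at 0.212, 0, 0 and 0 FPKM at 0 h and 835, 717, 1377 and 897 FPKM at 3 h. All 4 flooded libraries were far above every library at 0 h, and 3 of the 4 libraries at 0 h held no fragment. Its level was 17119-fold (95% exact counting interval 5857 to 83013) higher at 3 h, where the interval covers counting error only (limma, log2 fold change 12.77 ± 0.32, adjusted p = 5.5e-27). An Early nodulin-93 gene (evm_TU_scaffold_243_159, chromosome 2, 205577391 to 205583995, minus strand), named after a soybean nodule protein, was at 0, 0, 0 and 0 FPKM at 0 h and 333, 468, 702 and 421 FPKM at 3 h. No library at 0 h held a fragment of it, and against a floor of 3 fragments over the 4 libraries it was at least 3316-fold higher. A rhodanese-like domain protein (evm_TU_scaffold_1621_176), of a family of sulfur transferases, was at 0, 0, 0 and 0 FPKM at 0 h and 195, 297, 456 and 245 FPKM at 3 h. It likewise had no fragment in any library at 0 h and was at least 2042-fold higher.

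The other large rises included genes for enzymes, a transcription factor and protease inhibitors. A gene named Heat shock cognate 70 kDa protein 1 (evm_TU_scaffold_1550_39), whose domains include Hsp70, as in the name, and also Early nodulin 93, was at 0, 0, 0 and 0 FPKM at 0 h and 67.6, 105, 138 and 82.7 FPKM at 3 h. It was at least 769.9-fold higher. A gene matched to flavanone 3-dioxygenase 3 (evm_TU_scaffold_1032_93), a dioxygenase of flavonoid synthesis in rice, was at 0, 0, 0 and 0 FPKM at 0 h and 57.7, 78.5, 50.5 and 64.5 FPKM at 3 h. It was at least 441-fold higher. A Kunitz trypsin inhibitor, of a family that blocks serine proteases, was at 3.21, 2.38, 0.758 and 2.7 FPKM at 0 h and 1022, 1142, 1059 and 1361 FPKM at 3 h. The level was low but present in all 4 libraries at 0 h, and the rise was 541-fold (log2 fold change 9.08 ± 0.28, adjusted p = 3.1e-24). Miraculin, of the same inhibitor family, was at 0.08 ± 0.16 FPKM at 0 h and 73.2 ± 8.45 FPKM at 3 h (mean ± SD, n = 4 here and below), a rise of 933-fold (95% exact counting interval 319 to 4528). The remaining members of these 10 were a hemoglobin, an alcohol dehydrogenase and a LOB domain protein, given with their families below.

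The 10 largest falls held 3 aquaporins, 2 lipid transfer proteins and 5 other genes. A GPI-anchored lipid transfer protein 21 gene (evm_TU_scaffold_5318_60), of a family that carries lipids to the cell wall, was at 49.6, 35.8, 41.9 and 35.1 FPKM at 0 h and 0, 0, 0 and 0 FPKM at 3 h. No flooded library held a fragment, which makes it at least 350.2-fold lower. The aquaporin PIP1-5 gene (evm_TU_scaffold_965_251, chromosome 8, 238812943 to 238864724, plus strand), a plasma membrane water channel, was at 88.5, 94.4, 79 and 85.2 FPKM at 0 h and 0.186, 0.111, 0 and 0.44 FPKM at 3 h. The libraries at 0 h spanned a narrow range and all 4 flooded libraries were below 1 FPKM (363-fold lower, log2 fold change -8.50 ± 0.63, adjusted p = 2.7e-13). A second lipid transfer protein gene, GPI-anchored 5 (evm_TU_scaffold_8662_10), was at 30.2 ± 5.77 FPKM at 0 h and 0.0678 ± 0.136 FPKM at 3 h, a fall of 399.8-fold (95% exact counting interval 110.3 to 3307). A probable jasmonic acid carboxyl methyltransferase (evm_TU_scaffold_8540_41), which makes the volatile methyl jasmonate, was at 33.8, 16.7, 32.2 and 35.7 FPKM at 0 h and 0, 0, 0.352 and 0 FPKM at 3 h. A single flooded library held any fragment of it, and the fall was 299.9-fold (95% exact counting interval 82.7 to 2481).

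The ABC transporter B family member 11 gene (evm_TU_scaffold_1236_62), of a family of membrane pumps, was at 18.7 ± 4.34 FPKM at 0 h and 0.0414 ± 0.062 FPKM at 3 h and fell 139-fold (log2 fold change -7.12 ± 0.59, adjusted p = 4.5e-12). Laccase-5 (evm_TU_scaffold_8085_161), of the copper oxidases that polymerise lignin, was at 21.2, 8.11, 11.1 and 11 FPKM at 0 h and 0, 0, 0 and 0 FPKM at 3 h. It was at 0 in every flooded library and at least 46.2-fold lower. The aquaporin PIP1-2 gene (evm_TU_scaffold_3999_167) was at 87.6, 60.1, 56.6 and 59.8 FPKM at 0 h and 0.474, 0.752, 0.302 and 0.374 FPKM at 3 h. All flooded libraries were below 1 FPKM (118-fold lower, log2 fold change -6.88 ± 0.83, adjusted p = 3.3e-08). Serine carboxypeptidase-like 17 (evm_TU_scaffold_389_52) was at 27.6 ± 14.6 FPKM at 0 h and 0.127 ± 0.12 FPKM at 3 h (log2 fold change -6.86, adjusted p = 1.5e-08), and its libraries at 0 h were spread from 8.15 to 43.7 FPKM. The tonoplast aquaporin TIP1-2 (evm_TU_scaffold_508_222) was at 20.1 ± 1.95 FPKM at 0 h and 0.0975 ± 0.0662 FPKM at 3 h, a fall of 202-fold (95% exact counting interval 69 to 984). Scopoletin 8-hydroxylase (evm_TU_scaffold_1727_4), which in Arabidopsis makes the iron-mobilising coumarin fraxetin, was at 24.4 ± 5.78 FPKM at 0 h and 0.153 ± 0.124 FPKM at 3 h (log2 fold change -6.74, adjusted p = 2.1e-10).

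Every gene described singly below with a rise or fall had 4 flooded libraries wholly above or wholly below the 4 at 0 h, except the aquaporin TIP1-1. For a gene whose groups do not overlap, the exact two-sided permutation test of 4 libraries against 4 gives p = 0.0286, the smallest it can give. Over all tested genes, 12.7% lay wholly higher and 20.4% wholly lower at 3 h. Families are described by the number of tested members that rose or fell, to be read against the 8.96% and 12.7% of all tested genes, and by their median log2 fold change, to be read against -0.13. A bounded median, where given, sets members at 0 in all libraries of one time to the bound that 3 fragments allow, or leaves them out where both times are at or under it.

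Oxygen-sensing genes themselves moved. Of the 13 tested plant cysteine oxidase genes, 7 rose and 0 fell (median 1.58). The plant cysteine oxidase 2 gene (evm_TU_scaffold_640_103, chromosome 21, 55489510 to 55492905, plus strand) was at 1.35, 1.05, 1.01 and 0.842 FPKM at 0 h and 150.4, 147, 157 and 164 FPKM at 3 h. Both groups were tight, and the level rose 134-fold (log2 fold change 7.07 ± 0.31, adjusted p = 1.1e-19). A plant cysteine oxidase 1 gene (evm_TU_scaffold_6679_73) was at 9.2, 8.08, 7.95 and 3.5 FPKM at 0 h and 172, 177, 163 and 197 FPKM at 3 h, a rise of 25.8-fold (log2 fold change 4.69 ± 0.17, adjusted p = 5.9e-22).

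Group VII ethylene response factors, the substrates of these oxidases, were mixed, with 7 of 23 higher, 1 lower and a median of 0.78. The most abundant, a RAP2-2 gene (evm_TU_scaffold_911_187), was at 227, 274, 199 and 214 FPKM at 0 h and 387, 353, 390.1 and 458 FPKM at 3 h. Its groups did not overlap, but the difference of 1.74-fold was under the 2-fold limit (log2 fold change 0.80 ± 0.18, adjusted p = 6.3e-04). An ERF071 gene (evm_TU_scaffold_1573_287, chromosome 13, 267534710 to 267547541, plus strand), whose Arabidopsis match is itself a low-oxygen response gene of the group, was at 1.64, 2.2, 1.37 and 1.48 FPKM at 0 h and 171, 215, 226 and 226 FPKM at 3 h. All flooded libraries were above 100 FPKM from a start near 2 (119-fold, log2 fold change 6.90 ± 0.22, adjusted p = 6.4e-24).

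Hemoglobins, which in plants bind oxygen and turn over nitric oxide, had 12 of 14 members higher and 0 lower (median 3.97, bounded median 4.61). Non-symbiotic hemoglobin 2 (evm_TU_scaffold_415_128, chromosome 9, 216866232 to 216867741, plus strand) was at 0.242, 0, 0.417 and 0 FPKM at 0 h and 532, 473, 546 and 664 FPKM at 3 h. It was at or near 0 before flooding and high in all 4 flooded libraries (2679-fold, log2 fold change 11.39 ± 0.40, adjusted p = 1.2e-22). LOB domain proteins are transcription factors of lateral organs, and LBD41 is a core low-oxygen gene in Arabidopsis. In the whole family of 46 tested genes 7 rose and 11 fell (median -0.20). The LBD41 gene with the largest change (evm_TU_scaffold_24_295, chromosome 4, 207650742 to 207652444, plus strand) was at 0.283, 0.372, 0.324 and 0.311 FPKM at 0 h and 308, 309, 402 and 366 FPKM at 3 h. The libraries at 0 h lay between 0.283 and 0.372 FPKM, and the rise was 817-fold (log2 fold change 9.67 ± 0.28, adjusted p = 5.4e-25). The most abundant LBD41 gene (evm_TU_scaffold_1117_59) was at 63.7 ± 9.38 FPKM at 0 h and 565 ± 63.2 FPKM at 3 h, 8.88-fold higher (log2 fold change 3.15, adjusted p = 9.9e-16).

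Stearoyl-ACP desaturases, which need oxygen for their reaction and include the gene with the largest rise, were higher in 6 of 6 (median 3.12). Universal stress proteins, small nucleotide-binding proteins, had 6 higher and 3 lower of 18 (median -0.09, bounded median -0.19). A member matched to PHOS34 (evm_TU_scaffold_74_252) was at 15.7, 12.2, 10.7 and 10.2 FPKM at 0 h and 1795, 1832, 1748 and 2052 FPKM at 3 h. All flooded libraries exceeded 1700 FPKM (153-fold, log2 fold change 7.26 ± 0.26, adjusted p = 2.3e-22). A second PHOS34 gene (evm_TU_scaffold_1008_453) was at 1.71 ± 0.508 FPKM at 0 h and 361 ± 51.3 FPKM at 3 h (204-fold). Wound-induced protein 1 (evm_TU_scaffold_1693_478), a potato protein of unknown mechanism, was at 338 ± 81.5 FPKM at 0 h and 1241 ± 275 FPKM at 3 h (log2 fold change 1.88, adjusted p = 1.4e-09).

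**Figure D2:**
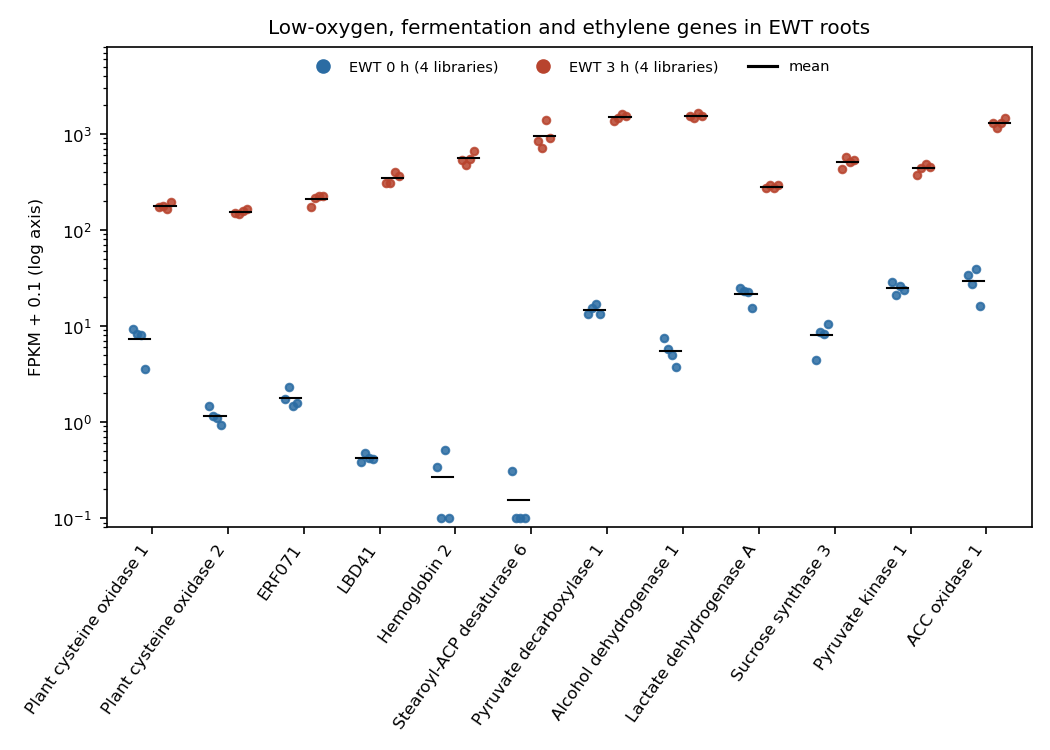
FPKM + 0.1 (log axis) in each of the 4 EWT libraries at 0 h and the 4 at 3 h, with the mean as a bar, for 12 genes of oxygen sensing, fermentation, sucrose breakdown, glycolysis and ethylene synthesis. In every one the flooded libraries lie above all libraries at 0 h, from a start at or near 0 for hemoglobin 2 and stearoyl-ACP desaturase 6 and from 29.1 FPKM for ACC oxidase 1.

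Pyruvate decarboxylase takes pyruvate to acetaldehyde and alcohol dehydrogenase turns that into ethanol, which regenerates the NAD+ that glycolysis needs when respiration stops. Of 26 tested pyruvate decarboxylase genes, 19 rose and 0 fell (median log2 fold change 5.46, bounded median 5.92). The most abundant, pyruvate decarboxylase 1 (evm_TU_scaffold_535_88, chromosome 12, 115816953 to 115819862, minus strand), was at 13.2, 15.2, 16.7 and 13.2 FPKM at 0 h and 1373, 1465, 1599.9 and 1546 FPKM at 3 h. From a low but present level it reached a high level in every flooded library (102-fold, log2 fold change 6.68 ± 0.20, adjusted p = 1.5e-24). A pyruvate decarboxylase 4 gene (evm_TU_scaffold_1628_435) was at 0.261, 0.0914, 0 and 0.0478 FPKM at 0 h and 76.7, 79.3, 98.6 and 95.4 FPKM at 3 h, with every library at 0 h below 0.3 FPKM (487-fold, log2 fold change 8.93 ± 0.37, adjusted p = 2.0e-20).

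Of 37 tested alcohol dehydrogenase genes, 21 rose and 1 fell (median 1.62, bounded median 1.73). The list takes in class III and other alcohol dehydrogenases. Among the 16 genes named alcohol dehydrogenase 1, the fermentative form, 14 rose. Counts for a single protein name, here and below, were picked after the values were seen. The most abundant ADH1 gene (evm_TU_scaffold_1473_324, chromosome 2, 19713978 to 19715974, minus strand) was at 7.45, 5.68, 4.88 and 3.6 FPKM at 0 h and 1522, 1462, 1656 and 1532 FPKM at 3 h. The flooded libraries lay close together, 289.6-fold above the start (log2 fold change 8.18 ± 0.23, adjusted p = 2.4e-25). A second ADH1 gene (evm_TU_scaffold_6424_13), among the 10 largest rises, was at 0.558, 0, 0 and 0 FPKM at 0 h and 167, 158, 186 and 203 FPKM at 3 h. It was at 0 in 3 of the 4 libraries at 0 h (1109-fold, log2 fold change 10.11 ± 0.39, adjusted p = 1.4e-21).

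The other ends of pyruvate rose too. L-lactate dehydrogenase, which makes lactate, was higher in 6 of 6 genes (median 4.03), and its most abundant copy (evm_TU_scaffold_891_231) was at 24.6, 23, 22.6 and 15.4 FPKM at 0 h and 269.6, 293, 271 and 290.1 FPKM at 3 h. That is 13.3-fold (log2 fold change 3.73 ± 0.17, adjusted p = 4.6e-19). Alanine aminotransferase, which stores pyruvate as alanine, was higher in 6 of 10 (median 1.56, bounded median 1.57), with the leading gene (evm_TU_scaffold_499_95) at 56.7 ± 11 FPKM at 0 h and 176 ± 32.2 FPKM at 3 h (log2 fold change 1.64, adjusted p = 5.4e-08). Glutamate decarboxylase, which opens the GABA shunt, had 0 of 5 higher and 2 lower (median -0.91). Its most abundant gene was not called, and the member with the largest called change (evm_TU_scaffold_225_644) was at 38 ± 4.8 FPKM at 0 h and 15.4 ± 2.97 FPKM at 3 h and fell (log2 fold change -1.31, adjusted p = 1.8e-04). Aldehyde dehydrogenases, which oxidise acetaldehyde, had 6 higher and 11 lower of 36 (median -0.56, bounded median -0.64).

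Sucrose is broken down either by sucrose synthase, which saves ATP, or by invertases in the cell wall, the vacuole or the cytosol. The members of these routes moved differently. Sucrose synthases had 8 of 25 higher and 3 lower (median 0.41). Sucrose synthase 3 (evm_TU_scaffold_485_33, chromosome 3, 246663690 to 246671792, minus strand) was at 4.33, 8.46, 8.17 and 10.5 FPKM at 0 h and 430, 576, 508 and 531 FPKM at 3 h. All flooded libraries were above 400 FPKM (67-fold, log2 fold change 6.07 ± 0.23, adjusted p = 6.9e-22). Sucrose synthase isoform 1 (evm_TU_scaffold_6916_24), the most abundant, was at 181, 130.2, 139 and 95.8 FPKM at 0 h and 1789, 1660.4, 1922 and 1832 FPKM at 3 h, 13.5-fold higher (log2 fold change 3.76 ± 0.22, adjusted p = 4.3e-16).

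Vacuolar invertases were lower in 16 of 16 (median -3.49), so that no tested member rose or was left uncalled. The soluble isoenzyme I gene (evm_TU_scaffold_1659_242, chromosome 9, 242342196 to 242345801, plus strand) was at 136, 100.4, 164 and 141 FPKM at 0 h and 1.88, 1.93, 6.88 and 1.71 FPKM at 3 h. Replicate 3 at 3 h was the highest of the flooded libraries and still far under the lowest at 0 h (49.9-fold lower, log2 fold change -5.64 ± 0.69, adjusted p = 4.5e-08). Cell wall invertases had 11 of 28 higher and 4 lower (median 0.76), with the most abundant (evm_TU_scaffold_7287_54) at 48.6 ± 13.9 FPKM at 0 h and 162 ± 16.7 FPKM at 3 h (log2 fold change 1.79, adjusted p = 5.2e-07). Neutral invertases, a list not limited to forms of the cytosol, had 0 higher and 4 lower of 29 (median -0.15, bounded median -0.30). Among those lower was a gene named as a mitochondrial form (evm_TU_scaffold_11687_22, log2 fold change -1.28, adjusted p = 0.0142).

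SWEET transporters move sugars across membranes. 13 of 22 tested members fell and 0 rose (median -2.36), and without the filter on low values the median was 0.02 with 13 members still lower. SWEET17 (evm_TU_scaffold_1806_586), a fructose carrier of the vacuole in Arabidopsis, was at 12, 9.1, 7.56 and 9.3 FPKM at 0 h and 0.423, 0, 0.607 and 0.25 FPKM at 3 h, and no flooded library reached 1 FPKM (28.1-fold lower, log2 fold change -4.81 ± 0.63, adjusted p = 1.9e-07). The most abundant member, SWEET2 (evm_TU_scaffold_126_27), was at 39 ± 11.8 FPKM at 0 h and 50.3 ± 7.46 FPKM at 3 h with overlapping groups and was not called (log2 fold change 0.40, adjusted p = 0.26). Amylases, which open starch, had 2 higher and 7 lower of 45 (median 0.14, bounded median 0.17).

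Glycolytic families held genes that rose and genes that fell, in differing shares. Fructokinases had 9 of 50 higher and 4 lower (median 0.05, bounded median 0.02), and fructokinase-2 (evm_TU_scaffold_10595_103) was at 271 ± 56.8 FPKM at 0 h and 668 ± 69.5 FPKM at 3 h (log2 fold change 1.32, adjusted p = 1.3e-11). Phosphofructokinases, the committed step, had 3 higher and 11 lower of 61 (median -0.23, bounded median -0.32). Of these, the ATP-dependent phosphofructokinase 3 gene (evm_TU_scaffold_10071_22) was at 8.21, 8.12, 6.38 and 5.35 FPKM at 0 h and 59.9, 69.4, 67.1 and 62.3 FPKM at 3 h, 9.22-fold higher (log2 fold change 3.21 ± 0.20, adjusted p = 3.3e-15). The most abundant one, a subunit of the pyrophosphate-dependent enzyme (evm_TU_scaffold_354_61), was at 179.8 ± 17.6 FPKM at 0 h and 137 ± 17.1 FPKM at 3 h, overlapped between the times and was not called. Aldolases had 6 of 16 higher and 0 lower (median 0.87), with cytosolic aldolase 6 (evm_TU_scaffold_10246_254) at 349 ± 84.6 FPKM at 0 h and 961 ± 114 FPKM at 3 h (log2 fold change 1.49, adjusted p = 2.7e-08).

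Glyceraldehyde-3-phosphate dehydrogenases had 12 higher and 4 lower of 49 (median 0.19, bounded median 0.27). The most abundant cytosolic gene (evm_TU_scaffold_9671_113) was at 934 ± 143 FPKM at 0 h and 1374 ± 169.6 FPKM at 3 h, under the 2-fold limit (log2 fold change 0.56, adjusted p = 0.00261), while a rare copy (evm_TU_scaffold_9741_6) was at 0.0663 ± 0.0444 FPKM at 0 h and 14 ± 4.39 FPKM at 3 h, a rise of 209-fold (95% exact counting interval 71.2 to 1016). Enolases were split, with 7 higher and 7 lower of 25 (median 0.28, bounded median 0.36). The most abundant enolase (evm_TU_scaffold_1796_29) was at 219 ± 44.9 FPKM at 0 h and 828 ± 133 FPKM at 3 h (log2 fold change 1.93, adjusted p = 1.6e-09), and another (evm_TU_scaffold_803_41) was at 20.8, 23.8, 23.9 and 15.6 FPKM at 0 h and 0.359, 0.549, 0.589 and 0.243 FPKM at 3 h, a fall of 40.5-fold (log2 fold change -5.34 ± 0.53, adjusted p = 4.5e-10). These 2 enolase genes therefore moved in opposite directions. Pyruvate kinases, the last step, had 9 higher and 2 lower of 42 (median -0.17), and cytosolic pyruvate kinase 1 (evm_TU_scaffold_8286_29) was at 28.4, 21, 26.2 and 23.5 FPKM at 0 h and 377, 442, 488 and 447 FPKM at 3 h. It rose 17.7-fold (log2 fold change 4.14 ± 0.24, adjusted p = 4.6e-16). Hexokinases, the entry step, had 1 higher and 5 lower of 29 (median -0.51, bounded median -0.55), and a hexokinase-1 gene (evm_TU_scaffold_812_43) was at 5.41 ± 0.897 FPKM at 0 h and 0.28 ± 0.159 FPKM at 3 h (log2 fold change -3.94, adjusted p = 1.1e-08). Phosphoglycerate kinases and mutases had 4 and 3 of 30.

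Phosphoenolpyruvate carboxykinase links malate and oxaloacetate back to phosphoenolpyruvate. It was higher in 15 of 27 genes and lower in 2 (median 2.40, bounded median 2.50). Its most abundant gene (evm_TU_scaffold_1217_113) was at 22.8, 24.8, 20.4 and 32.1 FPKM at 0 h and 261, 292, 167 and 257 FPKM at 3 h, with replicate 3 lowest of the flooded libraries and still above all at 0 h (9.66-fold, log2 fold change 3.27 ± 0.27, adjusted p = 3.0e-12). Malate dehydrogenases had 1 higher and 5 lower of 26 (median -0.63), the most abundant (evm_TU_scaffold_1005_273) being at 218 ± 49.7 FPKM at 0 h and 90.4 ± 12.5 FPKM at 3 h (log2 fold change -1.25, adjusted p = 2.0e-04).

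Trehalose 6-phosphate is a sugar signal made by one enzyme family and removed by another. Trehalose phosphate synthases had 14 of 57 higher and 6 lower (median 0.12, bounded median 0.20), and the synthase 7 gene (evm_TU_scaffold_1776_198) was at 35.4 ± 4.66 FPKM at 0 h and 111 ± 12.7 FPKM at 3 h (log2 fold change 1.65, adjusted p = 3.9e-10). Trehalose phosphate phosphatases had 11 of 22 lower and 2 higher (median -1.11). One of the latter, a phosphatase D gene (evm_TU_scaffold_604_48), was at 0.142 ± 0.165 FPKM at 0 h and 5.76 ± 3.46 FPKM at 3 h (log2 fold change 4.74, adjusted p = 1.6e-08), and the most abundant phosphatase D gene (evm_TU_scaffold_2548_238) was at 60.4 ± 14 FPKM at 0 h and 120 ± 28.7 FPKM at 3 h, just under the 2-fold limit (log2 fold change 0.99, adjusted p = 1.8e-04).

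**Figure D3:**
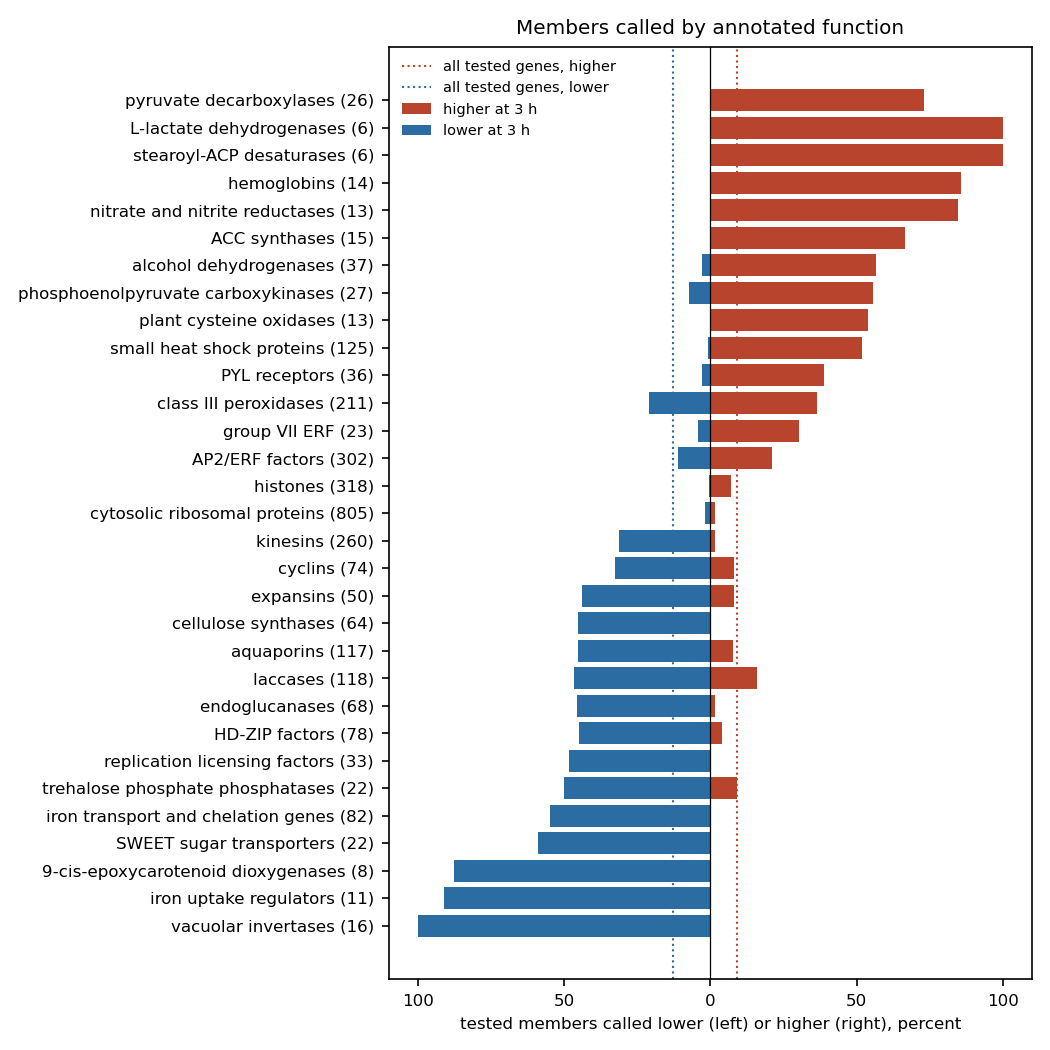
Percent of the tested members of 31 of the 99 families counted that were called lower (bars to the left) or higher (bars to the right) in EWT at 3 h, with the number tested in parentheses and the all-gene percentages as dotted lines. The 31 were picked for the plot after their values were seen. Lactate dehydrogenases and stearoyl-ACP desaturases were wholly higher, vacuolar invertases wholly lower, and ribosomal proteins were called in neither direction beyond the all-gene shares.

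Ethylene is made from ACC by ACC synthase, the limiting step, and ACC oxidase, which needs oxygen. ACC synthases were higher in 10 of 15 and lower in 0 (median 1.81). The ACC synthase 9 gene (evm_TU_scaffold_3123_57) was at 3.88, 4.55, 3.77 and 4.54 FPKM at 0 h and 44.2, 47.7, 44.9 and 55.9 FPKM at 3 h. Its 4 flooded libraries lay close together (11.3-fold, log2 fold change 3.49 ± 0.25, adjusted p = 1.5e-13). The most abundant ACC synthase (evm_TU_scaffold_1617_59) was at 348 ± 50.1 FPKM at 0 h and 659.6 ± 47.4 FPKM at 3 h, under the 2-fold limit (log2 fold change 0.93, adjusted p = 9.0e-05). ACC oxidases had 3 higher and 4 lower of 17 (median -0.33, bounded median -0.42). One ACC oxidase 1 gene (evm_TU_scaffold_7093_110) was at 33.7, 27.3, 39.2 and 16.2 FPKM at 0 h and 1285, 1138, 1301 and 1458 FPKM at 3 h, high in every flooded library (46.5-fold, log2 fold change 5.54 ± 0.28, adjusted p = 5.1e-18). Another (evm_TU_scaffold_11826_30) was at 0.723, 0.169, 0.923 and 0.177 FPKM at 0 h and 231, 217, 241 and 238 FPKM at 3 h, from below 1 FPKM (463-fold, log2 fold change 8.86 ± 0.53, adjusted p = 6.5e-16).

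Downstream, ethylene receptors, which repress the pathway until ethylene binds, had 6 of 21 higher and 0 lower (median 0.30, bounded median 0.39). An ethylene receptor 2 gene (evm_TU_scaffold_1005_74) was at 1.99, 1.67, 1.93 and 1.48 FPKM at 0 h and 32.8, 29.6, 27 and 32.7 FPKM at 3 h (log2 fold change 4.04 ± 0.17, adjusted p = 4.6e-20). All 6 tested genes of that name rose. EIN3-type factors and the F-box proteins that degrade them had 8 higher and 0 lower of 23 (median 0.91). EIN3-binding F-box protein 2 (evm_TU_scaffold_200_14) was at 19.7 ± 3.74 FPKM at 0 h and 161 ± 24.8 FPKM at 3 h (log2 fold change 3.03, adjusted p = 1.5e-13). The wider AP2/ERF family of transcription factors had 64 higher and 33 lower of 302 (median 0.28, bounded median 0.30), and the 11 genes matched to ERF110 all rose.

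Abscisic acid genes moved in opposite directions by role. 9-cis-epoxycarotenoid dioxygenase, the limiting enzyme of synthesis, fell in 7 of 8 genes and rose in 0 (median -3.17, bounded median -3.32). An NCED1 gene (evm_TU_scaffold_1806_717) was at 14.7, 17.2, 13.6 and 22.3 FPKM at 0 h and 0.389, 1.08, 0.787 and 0.819 FPKM at 3 h. No flooded library passed 1.08 FPKM (20.2-fold lower, log2 fold change -4.34 ± 0.56, adjusted p = 1.4e-07). PYL receptors, which bind the hormone, rose in 14 of 36 and fell in 1 (median 0.82, bounded median 0.90), and all 12 genes matched to PYL4 rose. The most abundant (evm_TU_scaffold_1659_357) was at 18.3, 18.1, 11.9 and 10.2 FPKM at 0 h and 239, 175, 219.8 and 240.3 FPKM at 3 h, 15.2-fold higher (log2 fold change 3.93 ± 0.18, adjusted p = 5.9e-19). The enzymes that break abscisic acid down, the 8'-hydroxylases, had 0 higher and 2 lower of 12, and the most abundant (evm_TU_scaffold_9086_292) was at 97 ± 16.2 FPKM at 0 h and 164 ± 26.5 FPKM at 3 h (log2 fold change 0.76, adjusted p = 0.00446), under the 2-fold limit.

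Gibberellin synthesis genes (20-oxidases and 3-oxidases) had 6 of 11 lower and 0 higher (median -1.57). A 3-oxidase gene (evm_TU_scaffold_699_520) was at 5.18 ± 1.22 FPKM at 0 h and 1.04 ± 0.575 FPKM at 3 h (log2 fold change -2.32, adjusted p = 0.0148). It was not called without replicate 2 at 3 h (adjusted p = 0.0532). The 2-oxidases, which inactivate gibberellin, had 4 higher and 1 lower of 19 (median 0.00, bounded median 0.76), with one (evm_TU_scaffold_1312_3) at 2.69, 2.6, 1.63 and 2.14 FPKM at 0 h and 24.3, 25.1, 26.9 and 30.8 FPKM at 3 h (log2 fold change 3.53 ± 0.25, adjusted p = 5.2e-14). GASA proteins, small gibberellin-regulated peptides, had 3 of 12 higher and 0 lower.

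Auxin genes were mixed. Aux/IAA repressors had 11 higher and 7 lower of 59 (median -0.18), and IAA18 (evm_TU_scaffold_82_40) was at 18.8, 16.1, 12.6 and 19.8 FPKM at 0 h and 159.8, 177, 192 and 187 FPKM at 3 h. It rose 10.7-fold (log2 fold change 3.42 ± 0.17, adjusted p = 4.5e-18). Carriers of the PIN and AUX1/LAX types had 6 higher and 11 lower of 30 (median -0.82), and PIN5 (evm_TU_scaffold_74_138), which in Arabidopsis sits in the endoplasmic reticulum, was at 6.1, 7.27, 8.01 and 6.34 FPKM at 0 h and 183, 201, 185 and 229 FPKM at 3 h (log2 fold change 4.83 ± 0.22, adjusted p = 3.0e-19). The early auxin genes of the SAUR family had 13 higher and 3 lower of 50 (median 0.46, bounded median 0.55), and SAUR76 (evm_TU_scaffold_6916_27) was at 0.486, 0.102, 0.112 and 0 FPKM at 0 h and 15.5, 16.7, 28.7 and 22.3 FPKM at 3 h, present in all flooded libraries from a start under 0.5 FPKM (90.5-fold, log2 fold change 6.50 ± 0.47, adjusted p = 1.2e-13). GH3 enzymes, which conjugate auxin or jasmonate to amino acids, had 5 and 4 of 22.

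Jasmonate synthesis enzymes had 16 higher and 27 lower of 97 (median -0.28), and a 13-lipoxygenase gene (evm_TU_scaffold_344_185), which starts the route, was at 6.22 ± 0.952 FPKM at 0 h and 0.0817 ± 0.0672 FPKM at 3 h (log2 fold change -5.19, adjusted p = 1.4e-11). TIFY repressors of jasmonate signalling had 4 and 9 of 45 (median -0.72, bounded median -0.73). Cytokinin dehydrogenases, which degrade cytokinin, were lower in 6 of 12 and higher in 0 (median -1.52), the leading gene (evm_TU_scaffold_1185_125) being at 12.7 ± 1.45 FPKM at 0 h and 3.37 ± 1.24 FPKM at 3 h (log2 fold change -1.94, adjusted p = 2.9e-04). Type-A response regulators, the fast cytokinin targets, had 1 and 1 of 14.

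Heat shock proteins divided by size class. Small heat shock proteins, which hold unfolding proteins in solution, had 65 of 125 higher and 1 lower (median 1.70, bounded median 2.13). A class II gene of this group (evm_TU_scaffold_18_409) was at 0, 0, 0 and 0 FPKM at 0 h and 5.05, 11.4, 9.13 and 14.6 FPKM at 3 h. It had no fragment in any library at 0 h and was at least 23.9-fold higher. The most abundant small heat shock protein gene (evm_TU_scaffold_18_398) was at 102 ± 20.5 FPKM at 0 h and 187 ± 24.2 FPKM at 3 h, under the 2-fold limit (log2 fold change 0.89, adjusted p = 0.0293). The ATP-dependent chaperones HSP70, HSP90 and HSP101 had 51 higher and 45 lower of 367 (median 0.00, bounded median -0.02), and the most abundant HSC70-2 gene (evm_TU_scaffold_67_29) was at 539 ± 83.5 FPKM at 0 h and 207 ± 34 FPKM at 3 h and fell (log2 fold change -1.38, adjusted p = 2.2e-05). Heat stress transcription factors had 12 and 9 of 76, and a class C-1 gene (evm_TU_scaffold_1328_165) was at 12.9 ± 2.73 FPKM at 0 h and 1.4 ± 0.424 FPKM at 3 h (log2 fold change -3.14, adjusted p = 1.9e-11).

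Genes of calcium signalling and reactive oxygen were mixed. Calmodulin-like proteins, which bind calcium, had 6 higher and 2 lower of 29 (median 0.77). CML38 (evm_TU_scaffold_717_4), a core low-oxygen gene in Arabidopsis, was at 194, 225, 115 and 177 FPKM at 0 h and 323, 438, 259 and 570.4 FPKM at 3 h. The groups did not overlap, though the lowest flooded library was near the highest at 0 h (log2 fold change 1.14 ± 0.27, adjusted p = 0.00149). The change was just under 2-fold, and so not called, with libraries scaled to all fragments (0.99), without replicate 3 at 0 h (0.94) or without replicate 4 at 3 h (0.95). Calcium ATPases, which pump calcium out of the cytosol, had 8 higher and 14 lower of 77. The plasma membrane calcium ATPase 2 gene (evm_TU_scaffold_6667_203) was at 29.1, 46.2, 30.2 and 35.5 FPKM at 0 h and 76, 108, 49.7 and 107 FPKM at 3 h (log2 fold change 1.23 ± 0.37, adjusted p = 0.0111). Respiratory burst oxidases, which make superoxide at the cell surface, had 6 higher and 2 lower of 20, with homolog C (evm_TU_scaffold_1265_22) at 31.7 ± 6.16 FPKM at 0 h and 123 ± 20.8 FPKM at 3 h (log2 fold change 1.96, adjusted p = 1.1e-08).

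Alternative oxidases, which pass electrons to oxygen in mitochondria, had 3 of 15 lower and 0 higher (median -1.14), and alternative oxidase 3 (evm_TU_scaffold_1724_344) was at 11.3 ± 4.17 FPKM at 0 h and 2.9 ± 1.1 FPKM at 3 h (log2 fold change -1.93, adjusted p = 6.1e-05). The manganese superoxide dismutase of mitochondria (evm_TU_scaffold_1659_209) was at 48.2, 38.7, 26 and 31.3 FPKM at 0 h and 427, 465, 547 and 507 FPKM at 3 h. All flooded libraries were above 400 FPKM (13.8-fold, log2 fold change 3.78 ± 0.15, adjusted p = 6.8e-21), within a list of dismutases, catalases and ascorbate peroxidases of which 5 rose and 4 fell out of 56. Glutathione S-transferases had 10 and 25 of 140 (median -0.39, bounded median -0.46), the leading gene (evm_TU_scaffold_1269_461) being at 366 ± 77.1 FPKM at 0 h and 174 ± 46.6 FPKM at 3 h (log2 fold change -1.09, adjusted p = 0.00165). Its fall was under 2-fold without replicate 1 at 0 h (-0.97) or replicate 3 at 3 h (-0.88).

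Class III peroxidases, secreted enzymes that cross-link or loosen the wall, moved both ways, with 77 of 211 higher and 44 lower (median 0.42, bounded median 0.40). Peroxidase 42 (evm_TU_scaffold_320_66), the most abundant, was at 1172, 787, 856 and 938 FPKM at 0 h and 247, 208, 240.5 and 235 FPKM at 3 h, 3.99-fold lower (standard error on the log2 scale 0.25, adjusted p = 7.2e-08). Peroxidase 51 (evm_TU_scaffold_40_16) was at 2.46, 1.8, 0.49 and 0 FPKM at 0 h and 53.9, 58.1, 65.4 and 60.6 FPKM at 3 h, a rise of 81.3-fold (log2 fold change 6.34 ± 0.56, adjusted p = 2.7e-11). Among genes matched to the lignin-forming anionic peroxidase of tobacco, 16 of 17 rose.

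Transcription factor families differed in direction. WRKY factors had 35 higher and 13 lower of 184 (median 0.05, bounded median 0.08), with WRKY40 (evm_TU_scaffold_1406_75) at 206 ± 34.5 FPKM at 0 h and 429.9 ± 31.2 FPKM at 3 h (log2 fold change 1.08, adjusted p = 1.8e-07, and 0.92, under the limit, with libraries scaled to all fragments). NAC factors had 29 and 21 of 172 (median 0.18), and NAC2 (evm_TU_scaffold_7258_16) was at 3.04, 1.79, 0.487 and 8.02 FPKM at 0 h and 47.6, 56.1, 86.5 and 77.5 FPKM at 3 h, with a wide spread at 0 h (log2 fold change 4.82 ± 0.45, adjusted p = 1.2e-10). MYB factors had 33 higher and 66 lower of 249 (median -0.35, bounded median -0.37). MYB92 (evm_TU_scaffold_183_206), which in Arabidopsis controls suberin, was at 6.36, 4.81, 3.5 and 6.15 FPKM at 0 h and 0, 0, 0 and 0 FPKM at 3 h, 0 in every flooded library and at least 23.7-fold lower. The 13 genes matched to MYB102 and the 7 matched to MYB93 all fell.

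The bHLH family had 29 higher and 74 lower of 232 (median -0.50, bounded median -0.52), and the bZIP family 16 and 43 of 150 (median -0.44, bounded median -0.45). bZIP44 (evm_TU_scaffold_1427_55) was at 8.45 ± 0.931 FPKM at 0 h and 0.0575 ± 0.0706 FPKM at 3 h, a fall of 146-fold (95% exact counting interval 49.6 to 710.4). HD-ZIP factors, plant-specific homeodomain proteins, had 35 of 78 lower and 3 higher (median -0.93). ATHB-6 (evm_TU_scaffold_1279_90), an abscisic acid response factor in Arabidopsis, was at 9.26 ± 1.45 FPKM at 0 h and 0.557 ± 0.262 FPKM at 3 h (log2 fold change -3.93, adjusted p = 2.6e-06). GRAS factors had 12 and 26 of 122, and C2H2 zinc fingers 18 and 31 of 184.

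Most families of cell wall enzymes had more members lower than higher. Expansins, which loosen walls, had 22 of 50 lower and 4 higher (median -1.75, bounded median -1.72). Expansin-B3 (evm_TU_scaffold_384_157) was at 5.32, 4.93, 7.19 and 4.32 FPKM at 0 h and 0, 0, 0 and 0 FPKM at 3 h, 0 in every flooded library and at least 99.4-fold lower. The most abundant member, expansin-like B1 (evm_TU_scaffold_10790_3), was at 23.2, 18.6, 20.6 and 33.2 FPKM at 0 h and 448, 465, 503 and 541 FPKM at 3 h and rose 20.8-fold (log2 fold change 4.38 ± 0.15, adjusted p = 1.6e-22). With a filter on the mean FPKM over all 40 libraries, the list had 4 higher, 3 lower and a median of 0.43. Cellulose synthases were lower in 29 of 64 and higher in 0 (median -1.11, bounded median -1.18). CESA4 (evm_TU_scaffold_771_31), a secondary wall subunit, was at 9.84 ± 4.53 FPKM at 0 h and 1.18 ± 0.28 FPKM at 3 h (log2 fold change -2.89, adjusted p = 1.8e-04), while CESA3 (evm_TU_scaffold_610_22), a primary wall subunit and the most abundant, was at 157 ± 32.8 FPKM at 0 h and 160.3 ± 13.3 FPKM at 3 h with overlapping groups and was not called (log2 fold change 0.05, adjusted p = 0.926).

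Endoglucanases had 31 of 68 lower and 1 higher (median -0.65, bounded median -0.66). Endoglucanase 17 (evm_TU_scaffold_1415_121) was at 31.3, 16.6, 21.6 and 19 FPKM at 0 h and 0.39, 0.133, 0.267 and 0.0659 FPKM at 3 h, below 0.4 FPKM in every flooded library (74.9-fold lower, log2 fold change -6.23 ± 0.54, adjusted p = 1.6e-11), and all 7 genes of that name fell. Pectin enzymes had 73 of 202 lower and 21 higher (median -0.69, bounded median -0.80), and a pectinesterase 6 gene (evm_TU_scaffold_11315_50) was at 11.3, 12.8, 10.1 and 9.82 FPKM at 0 h and 215, 242, 369.8 and 276 FPKM at 3 h and rose (log2 fold change 4.61 ± 0.28, adjusted p = 6.9e-16). Xyloglucan endotransglucosylases, which cut and rejoin xyloglucan, were more often higher, with 30 of 89 higher and 17 lower (median 0.50, bounded median 0.51). Of these, XTH2 (evm_TU_scaffold_4534_21) was at 68.8, 54.2, 28.7 and 32.6 FPKM at 0 h and 472, 491, 588 and 576 FPKM at 3 h, 12.2-fold higher (log2 fold change 3.61 ± 0.27, adjusted p = 3.2e-13), and XTH32 (evm_TU_scaffold_4532_48) was at 11.5, 2.37, 6.17 and 9.27 FPKM at 0 h and 0, 0, 0 and 0 FPKM at 3 h, at least 117-fold lower. Extensins, structural wall proteins, had 6 of 21 higher and 0 lower.

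Among genes of lignin and of the endodermal barrier, laccases had 55 of 118 lower and 19 higher (median -1.32, bounded median -1.39), although the filter on the mean FPKM over 40 libraries left 17 higher and 14 lower with a median of 0.50. Laccase-5 and laccase-3 genes made up part of the falls, with 11 of 12 and 12 of 16 lower, while the 7 genes matched to laccase-9 all rose. Laccase-7 (evm_TU_scaffold_1692_425), the most abundant, was at 47.6, 51, 57.6 and 60 FPKM at 0 h and 123, 148, 71.9 and 154 FPKM at 3 h, lowest in replicate 3 among the flooded libraries (log2 fold change 1.14 ± 0.27, adjusted p = 0.00117, and 0.99, under the limit, with libraries scaled to all fragments). Phenylpropanoid enzymes, which supply lignin precursors, had 14 higher and 29 lower of 159 (median -0.20). Casparian strip and CASP-like proteins, which scaffold the endodermal barrier, had 4 and 15 of 80, and CASP-like protein 1D1 (evm_TU_scaffold_1297_133) was at 89.4 ± 11.9 FPKM at 0 h and 13.6 ± 2.23 FPKM at 3 h (log2 fold change -2.71, adjusted p = 2.4e-07).

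Aquaporins are the water channels of plant membranes. Of 117 tested aquaporins, 53 fell and 9 rose (median -1.07, bounded median -1.10). All 7 PIP2-4 genes, all 6 PIP1-3 genes and all 5 PIP1-5 genes fell. The tonoplast aquaporin TIP1-1 (evm_TU_scaffold_18_33), the most abundant, was at 571, 371, 271 and 478 FPKM at 0 h and 1364, 1355, 366 and 1593 FPKM at 3 h. Replicate 3 at 3 h lay below 3 of the 4 libraries at 0 h and the groups overlapped, so the rise (log2 fold change 1.32 ± 0.29, adjusted p = 5.1e-04) is not shared by that library. Without it the log2 fold change was 1.82, and with all libraries in a fit of the 8 compared libraries alone the adjusted p was 0.172. The same replicate was the lowest or highest flooded library for several other genes given here, among them nitrate reductase, nitrite reductase, caryophyllene synthase and the Rubisco small subunit. Their log2 fold changes without that library are 3.11 for evm_TU_scaffold_5018_32, 3.09 for evm_TU_scaffold_7511_3, -1.67 for evm_TU_scaffold_237_76 and 2.86 for evm_TU_scaffold_24_314, all still called, and 18926 genes were called in all.

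**Figure D4:**
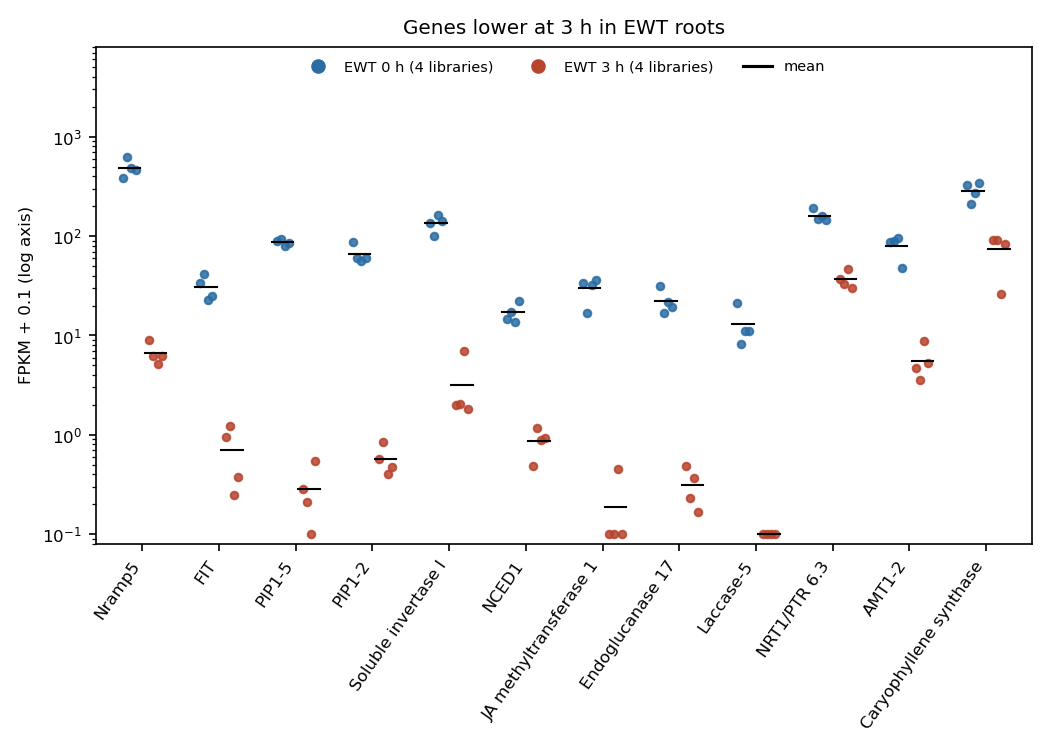
FPKM + 0.1 (log axis) in each of the 4 EWT libraries at 0 h and the 4 at 3 h, with the mean as a bar, for 12 genes of iron uptake, water and nitrogen transport, sugar and hormone metabolism, the cell wall and terpenes. Every flooded library lies below all libraries at 0 h, and Nramp5 went from a mean of 488 FPKM to 6.54 FPKM.

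In Arabidopsis the bHLH factor FIT switches on the uptake of iron at the root surface, and nicotianamine carries the metal inside the plant. Iron uptake regulators fell in 10 of 11 tested genes and rose in 0 (median -3.53). A FIT gene (evm_TU_scaffold_94_134) was at 34, 41.7, 22.8 and 24.6 FPKM at 0 h and 0.862, 1.12, 0.15 and 0.278 FPKM at 3 h. Every flooded library was near or below 1 FPKM (51.9-fold lower, log2 fold change -5.70 ± 0.68, adjusted p = 2.7e-08). Genes of iron transport and chelation fell in 45 of 82 and rose in 0 (median -1.87, bounded median -2.03). The Nramp5 metal transporter (evm_TU_scaffold_4047_22, chromosome 16, 99525067 to 99528543, plus strand), which takes up manganese and iron in rice roots, was at 384, 619, 488 and 462 FPKM at 0 h and 8.81, 6.17, 5.06 and 6.14 FPKM at 3 h, a fall of 73.9-fold (log2 fold change -6.21 ± 0.52, adjusted p = 7.5e-12). Among nicotianamine synthase genes 25 of 27 fell.

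Iron storage genes fell in 12 of 27 and rose in 0 (median -1.57). A vacuolar iron transporter gene (evm_TU_scaffold_425_535) was at 8.62 ± 4.16 FPKM at 0 h and 0.321 ± 0.274 FPKM at 3 h (log2 fold change -4.60, adjusted p = 2.5e-07). Ferritin-3 (evm_TU_scaffold_1659_374), the most abundant of the list, was at 70.2 ± 4.19 FPKM at 0 h and 61.3 ± 7.1 FPKM at 3 h, overlapped between the times and was not called (log2 fold change -0.20, adjusted p = 0.525). The members that fell were mostly vacuolar iron transporter homologs, which load iron into the vacuole, with 7 of 8 named homolog 1 and 4 of 5 named homolog 4.

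Nitrogen genes differed by family, and the transporter families did not all move the same way. Nitrate reductase and nitrite reductase turn nitrate into ammonium by way of nitrite. They rose in 11 of 13 genes and fell in 0 (median 3.09). Nitrate reductase (evm_TU_scaffold_5018_32) was at 5.96, 6.31, 4.14 and 2.09 FPKM at 0 h and 44.8, 31.6, 104 and 37.4 FPKM at 3 h. Replicate 3 was far above the other flooded libraries, and all 4 were above every library at 0 h (11.1-fold, log2 fold change 3.48 ± 0.31, adjusted p = 3.6e-11). Nitrite reductase (evm_TU_scaffold_7511_3) was at 18.4, 18.5, 18.6 and 11.8 FPKM at 0 h and 154, 125, 295 and 147 FPKM at 3 h, again highest in replicate 3 (10.2-fold, log2 fold change 3.35 ± 0.22, adjusted p = 1.6e-14).

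NRT1/PTR transporters, which carry nitrate, peptides and hormones, had 55 of 146 lower and 14 higher (median -0.75, bounded median -0.83). NRT1/PTR 6.3 (evm_TU_scaffold_891_317), the dual-affinity nitrate transporter and sensor of Arabidopsis, was at 161 ± 22.3 FPKM at 0 h and 36.6 ± 7.41 FPKM at 3 h (log2 fold change -2.14, adjusted p = 4.4e-05). High-affinity nitrate transporters had 7 higher and 3 lower of 28 (median 0.37), with NRT3.1 (evm_TU_scaffold_1233_12) at 322 ± 50.9 FPKM at 0 h and 681 ± 72.1 FPKM at 3 h (log2 fold change 1.09, adjusted p = 6.9e-04, and 0.94, under the limit, with libraries scaled to all fragments) and an NRT2.1 gene (evm_TU_scaffold_169_52) at 9.88 ± 3.93 FPKM at 0 h and 1.06 ± 0.753 FPKM at 3 h (log2 fold change -3.24, adjusted p = 2.8e-04). Ammonium transporters had 6 higher and 3 lower of 12 (median 1.14), and AMT1-2 (evm_TU_scaffold_1501_251) was at 87.6, 88.2, 94.9 and 48.1 FPKM at 0 h and 4.65, 3.43, 8.73 and 5.14 FPKM at 3 h, 14.6-fold lower (log2 fold change -3.87 ± 0.37, adjusted p = 1.6e-10). Phosphate transporters had 4 and 4 of 11, with phosphate transporter 1 (evm_TU_scaffold_1005_248) at 0.942 ± 0.306 FPKM at 0 h and 46.2 ± 6.7 FPKM at 3 h (45.3-fold). Potassium channels and transporters had 9 and 20 of 77 (median -0.43, bounded median -0.50).

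Genes of cell division had more members lower than higher. Replication licensing factors (MCM proteins and partners), which open the DNA for copying, fell in 16 of 33 and rose in 0 (median -1.05, bounded median -1.63). MCM4 (evm_TU_scaffold_242_103) was at 6.79 ± 1.4 FPKM at 0 h and 1.24 ± 0.796 FPKM at 3 h (log2 fold change -2.52, adjusted p = 2.5e-04). Cyclins had 24 of 74 lower and 6 higher (median -0.97), and kinesins, the motors of spindle and phragmoplast among others, had 81 of 260 lower and 4 higher (median -0.81, bounded median -0.92). Kinesin KIN-14N (evm_TU_scaffold_1389_60) was at 7.05 ± 1.66 FPKM at 0 h and 1.06 ± 0.602 FPKM at 3 h (log2 fold change -2.73, adjusted p = 3.6e-06), whereas the most abundant kinesin, KIN-UA (evm_TU_scaffold_534_8), was at 12.3 ± 5.54 FPKM at 0 h and 45.1 ± 7.85 FPKM at 3 h and rose (log2 fold change 1.94, adjusted p = 3.5e-06).

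Histones had 23 of 318 higher and 1 lower (median 0.38, bounded median 0.39). The share that fell is far under the 12.7% of all tested genes, and the share that rose is near the 8.96%. The most abundant linker histone H1 (evm_TU_scaffold_2900_43) was at 102, 118, 72.9 and 111 FPKM at 0 h and 595, 609, 742 and 728 FPKM at 3 h, 6.68-fold higher (log2 fold change 2.74 ± 0.21, adjusted p = 9.7e-13). Cytosolic ribosomal proteins had 14 higher and 14 lower of 805 (median -0.21, bounded median -0.23), and the most abundant, S27-2 (evm_TU_scaffold_886_87), was at 528 ± 94.7 FPKM at 0 h and 569.8 ± 83.8 FPKM at 3 h with overlapping groups. Translation initiation factors had 9 and 10 of 224. In neither of these lists of the translation machinery did the calls in a direction reach the share of all tested genes.

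The large families of specialised metabolism had more members lower than higher. Terpene synthases, which make the scent and defence compounds of chrysanthemum, had 18 of 41 lower and 3 higher (median -1.11, bounded median -1.23). A beta-caryophyllene synthase gene (evm_TU_scaffold_237_76) was at 329, 210.1, 272 and 339.8 FPKM at 0 h and 90.9, 92.3, 26.2 and 83.7 FPKM at 3 h, lowest in replicate 3 of the flooded libraries (4.31-fold lower, log2 fold change -2.11 ± 0.47, adjusted p = 7.2e-04). Cytochrome P450 genes had 135 of 389 lower and 51 higher (median -0.67, bounded median -0.69). CYP78A5 (evm_TU_scaffold_930_74), a regulator of organ size in Arabidopsis, was at 16, 19.2, 12.9 and 13.1 FPKM at 0 h and 0.16, 0, 0 and 0.189 FPKM at 3 h, a fall of 179.9-fold (95% exact counting interval 49.5 to 1491).

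Clock genes had 16 higher and 6 lower of 85 (median 0.10). They bear on the comparison because the groups may differ in time of day. The labels give hours of waterlogging and no clock time of sampling. An APRR1 gene (evm_TU_scaffold_393_275), the TOC1 evening gene of Arabidopsis, was at 0.821, 0.903, 0.813 and 0.41 FPKM at 0 h and 15, 19.3, 22.6 and 16.5 FPKM at 3 h, 22.5-fold higher (log2 fold change 4.49 ± 0.24, adjusted p = 2.6e-17). ELF4-LIKE 3 (evm_TU_scaffold_4891_20) was at 8.33, 10.9, 7.01 and 8.96 FPKM at 0 h and 76.2, 81, 34.5 and 101 FPKM at 3 h (log2 fold change 2.96 ± 0.42, adjusted p = 9.7e-07). The part of the day's course in the other results was not tested. Autophagy genes had 8 higher and 1 lower of 81, and ATG8i (evm_TU_scaffold_1007_171), which coats the autophagosome, was at 18.5 ± 5.7 FPKM at 0 h and 84.6 ± 23 FPKM at 3 h (log2 fold change 2.19, adjusted p = 2.1e-08).

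The genes with the highest levels over the 8 libraries had no protein match. A gene with a glycine-rich domain (evm_TU_scaffold_735_38) was at 11146, 4772, 7647 and 6009 FPKM at 0 h and 4569.7, 5058, 1139.8 and 4732 FPKM at 3 h, with overlapping groups and no call (log2 fold change -1.07, adjusted p = 0.0699). A second (evm_TU_scaffold_1663_43) was at 8838, 4298, 6333 and 5210.3 FPKM at 0 h and 3398, 3817, 800.1 and 3442 FPKM at 3 h (log2 fold change -1.28, adjusted p = 0.0254), a fall that was not called without replicate 3 at 3 h (log2 fold change -0.75, adjusted p = 0.203), without replicate 1 or 3 at 0 h (adjusted p = 0.0927 and 0.0556) or in a limma fit of the 8 compared libraries alone (adjusted p = 0.865). Another (evm_TU_scaffold_737_533) was at 3665, 3039.6, 2107 and 2242 FPKM at 0 h and 1011, 1036, 419 and 1483 FPKM at 3 h (log2 fold change -1.58, adjusted p = 7.5e-04), and it too was not called in the fit of the 8 libraries alone (adjusted p = 0.394). Replicate 3 was the lowest flooded library in each.

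To see where the response of EWT differed from that of the sensitive cultivar, the change from 0 h to 3 h in EWT was set against the same change in CK (4 libraries at each time) by an interaction term. It was called for 4517 genes (5.05%), in 2476 of them toward EWT (2.77%) and in 2041 toward CK (2.28%), where toward EWT means a larger rise or a smaller fall in EWT. The balance turned to 2062 toward EWT and 2482 toward CK with libraries scaled to all fragments, and to 1174 and 1253 at a 4-fold limit. In 57 of the 99 families the share called was above 5.05%. The families given here were picked after their values were seen. Pyruvate decarboxylases had 0 and 1, hemoglobins 0 and 0, and vacuolar invertases 0 and 0 toward EWT and CK. Xyloglucan endotransglucosylases had 28 of 89 toward EWT and 2 toward CK. Calmodulin-like proteins had 16 of 29 toward EWT and 0 toward CK. AP2/ERF factors had 45 of 302 and 7, extensins 9 of 21 and 1, and phenylpropanoid enzymes 19 of 159 and 5. In CK alone at 3 h, calmodulin-like proteins had 0 higher and 11 lower, xyloglucan endotransglucosylases 5 and 26, and AP2/ERF factors 42 and 79. Extensins had 5 and 7 there, phenylpropanoid enzymes 14 and 51, and jasmonate synthesis enzymes 9 and 42. A count toward EWT therefore holds falls in CK as well as rises in EWT. Toward CK the count was larger for iron transport and chelation genes, with 11 of 82 against 2, and for phosphofructokinases, with 6 of 61 against 0. Gibberellin 2-oxidases were split, with 4 and 4 of 19, while ammonium transporters had 4 and 1 of 12, trehalose phosphate phosphatases 5 and 1 of 22, and jasmonate synthesis enzymes 11 and 0 of 97. With all-fragment scaling the phenylpropanoid enzymes had 11 toward EWT and the trehalose phosphate phosphatases 2. On that scale the gibberellin 2-oxidases had 2 toward EWT and 4 toward CK. AP2/ERF factors had 39 and 8, jasmonate synthesis enzymes 9 and 0, and iron transport and chelation genes 2 and 13.

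**Figure D5:**
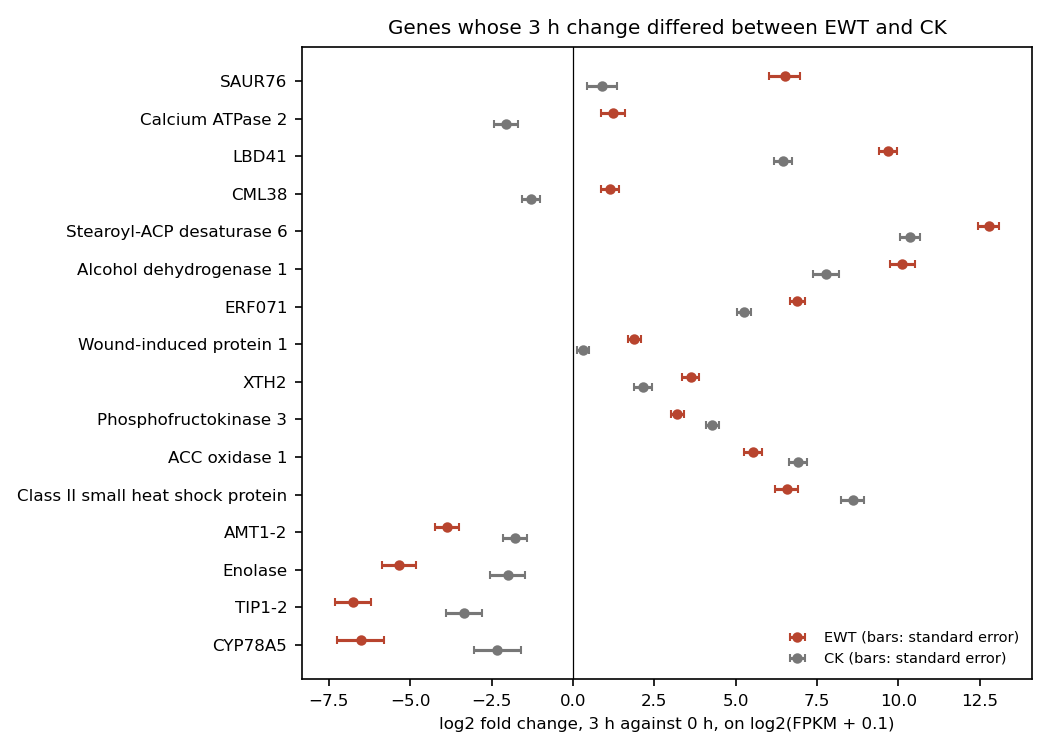
Log2 fold change at 3 h against 0 h in EWT and in CK (points, with the standard error as bars) for 16 named genes whose change differed between the cultivars. SAUR76 has a log2 fold change of 6.50 in EWT and 0.88 in CK, while CML38 and calcium ATPase 2 rose in EWT and fell in CK.

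CML38 was at 353 ± 71.3 FPKM at 0 h and 151 ± 64.9 FPKM at 3 h in CK, against a rise in EWT, a difference of 2.42 ± 0.39, adjusted p = 9.5e-05. Calcium ATPase 2 was at 72.3 ± 14 FPKM at 0 h and 17.3 ± 4.08 FPKM at 3 h in CK (difference 3.30 ± 0.52, adjusted p = 8.3e-05). These calcium genes had a higher level in CK than in EWT before flooding. SAUR76 was at 0 ± 0 FPKM at 0 h and 0.127 ± 0.166 FPKM at 3 h in CK, near 0 at both times in that cultivar (difference 5.62 ± 0.66, adjusted p = 8.6e-07). LBD41 (evm_TU_scaffold_24_295) was at 6.12 ± 5.1 FPKM at 0 h and 462 ± 127 FPKM at 3 h in CK. It ended at a like level in both cultivars and started lower in EWT (difference 3.22 ± 0.40, adjusted p = 1.8e-06). ERF071 was at 14.4 ± 8.12 FPKM at 0 h and 499 ± 48.4 FPKM at 3 h in CK (difference 1.63 ± 0.31, adjusted p = 8.0e-04). In EWT it started lower and was also lower at 3 h (209 ± 26 FPKM). Wound-induced protein 1 was at 331 ± 45.2 FPKM at 0 h and 414 ± 86.7 FPKM at 3 h in CK (difference 1.57 ± 0.28, adjusted p = 3.5e-04). In the other direction, the phosphofructokinase 3 gene was at 8.04 ± 1.09 FPKM at 0 h and 162 ± 44.1 FPKM at 3 h in CK (difference -1.08 ± 0.29, adjusted p = 0.018) and the ACC oxidase 1 gene evm_TU_scaffold_7093_110 at 6.91 ± 2.78 FPKM at 0 h and 808 ± 143 FPKM at 3 h in CK (difference -1.37 ± 0.39, adjusted p = 0.0319). TIP1-2 was at 1.18 ± 0.903 FPKM at 0 h and 0 ± 0 FPKM at 3 h in CK (difference -3.41 ± 0.78, adjusted p = 0.00528) and CYP78A5 at 0.61 ± 0.234 FPKM at 0 h and 0.0551 ± 0.11 FPKM at 3 h in CK (difference -4.19 ± 1.02, adjusted p = 0.00898), and both were near 1 FPKM or lower in CK before flooding.

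The course after 3 h was read from EWT at 12 h of waterlogging (4 libraries) against 3 h. This comparison shares the libraries at 3 h with the main one. It called 24458 genes (27.3%), with 12214 higher (13.6%) and 12244 lower (13.7%) at the later time. With libraries scaled to all fragments, 7974 were higher and 19235 lower, and the median log2 fold change over all tested genes was -0.37. The families and genes given here for 12 h were not recounted on that scale. Small heat shock proteins went on rising, with 110 of 125 higher and 1 lower (median 4.82). The class II gene evm_TU_scaffold_18_409 reached 405 ± 106 FPKM (log2 fold change from 3 h 5.38, adjusted p = 8.6e-14). Ribosomal proteins, few of which were called at 3 h, had 378 of 805 lower and 31 higher at 12 h. Nitrate and nitrite reductases turned, with 8 of 13 lower and 0 higher, and nitrite reductase was at 26 ± 3.84 FPKM (log2 fold change from 3 h -2.72, adjusted p = 1.5e-11). Phenylpropanoid enzymes had 74 of 159 lower and 7 higher.

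Several core low-oxygen genes were not called between 3 h and 12 h. Plant cysteine oxidase 2 was at 145 ± 19.5 FPKM (log2 fold change from 3 h -0.10, adjusted p = 0.873), hemoglobin 2 at 706 ± 148 FPKM (log2 fold change from 3 h 0.34, adjusted p = 0.578) and ADH1 (evm_TU_scaffold_1473_324) at 2053 ± 280.3 FPKM (log2 fold change from 3 h 0.40, adjusted p = 0.191). Others went on rising. ERF071 reached 667 ± 109 FPKM (log2 fold change from 3 h 1.67, adjusted p = 2.3e-07), sucrose synthase 3 reached 1425 ± 80.7 FPKM (log2 fold change from 3 h 1.49, adjusted p = 3.0e-06) and XTH2 reached 2847 ± 595 FPKM (log2 fold change from 3 h 2.40, adjusted p = 1.0e-08). The Kunitz inhibitor reached 3915 ± 883 FPKM (log2 fold change from 3 h 1.75, adjusted p = 7.0e-06). Ethylene synthesis genes came down, with 9 of 15 ACC synthases lower and 4 higher at 12 h, and the ACC oxidase 1 gene evm_TU_scaffold_7093_110 at 305 ± 72.4 FPKM (log2 fold change from 3 h -2.11, adjusted p = 2.6e-07). Phosphate transporter 1, which had risen 45.3-fold by 3 h, fell to 1.93 ± 0.769 FPKM (log2 fold change from 3 h -4.61, adjusted p = 3.2e-09).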

How the data were processed

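RNA-seq of roots gave 40 libraries, of which the 8 of EWT at 0 h and 3 h were compared. Per the submitters' processing notes, reads were trimmed with fastp, aligned with HISAT2 (2.0.5) and counted with featureCounts (1.5.0-p3). No genome build is named in these sources. Deposited by the authors were FPKM per gene with their own protein names, domains and transcription factor families, and those FPKM were used as deposited. FPKM times gene length gave whole fragments for all values (tolerance 0.01), which set the depth. The library size implied by the FPKM was 0.762 to 1.30 times the fragments on genes, so 1 alternative rescaled each library to the latter. In EWT this factor was 1.15 to 1.29 at 0 h, 1.04 to 1.14 at 3 h and 0.762 to 0.838 at 12 h. The factor therefore differed by time, and its cause is not known.

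limma (3.58.1, R 4.3.3) was fitted to log2(FPKM + 0.1) of genes with at least 1 FPKM in 4 libraries, with a trend in the prior variance and two-sided tests. The contrasts were EWT 3 h against 0 h, the same change in EWT minus CK, and EWT 12 h against 3 h. Tested on simulated counts of EWT 3 h against 0 h with 89517 genes, the fit called 3 of 50 genes changed 2-fold, 43 of 50 changed 4-fold and 50 of 50 changed 8-fold, and 21 of 89317 unchanged genes. The counts were drawn with the same dispersion for every gene, and the changed genes only from well-covered ones. Single genes were named by a rule: the 10 largest rises and falls, the most abundant and the most changed member of each family, and the 3 most abundant genes, as far as room allowed. Families and tests were chosen with earlier results of these data known. Families were counted by protein name or by the authors' transcription factor family. Permutation tests used scipy 1.17.1. Alternatives were other pseudocounts, filters, scalings and weights, a voom fit, a replicate block and leaving out single libraries.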

Additional observations from a re-analysis of the deposited data

Results flagged for a closer look

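In 17 of 240 groups of 4 libraries over the genes named (7.08%), 1 library stood apart from the other 3 by Dixon's test, where chance gives about 5%. In 5 cases every other library was at 0 FPKM. At 0 h these were the desaturase evm_TU_scaffold_1121_86 (0.212 FPKM), the ADH1 gene evm_TU_scaffold_6424_13 (0.558 FPKM) and miraculin (0.32 FPKM), and at 3 h they were GPI-anchored lipid transfer protein 5 (0.271 FPKM) and jasmonic acid methyltransferase 1 (0.352 FPKM). A glyceraldehyde-3-phosphate dehydrogenase gene (evm_TU_scaffold_9741_6) was at 0 in replicate 3 at 0 h, against 0.0842 to 0.0926 FPKM in the others.

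Single libraries at 0 h stood high for PIP1-2 (87.6 FPKM in replicate 1 against 56.6 to 60.1 FPKM) and CESA4 (16.6 FPKM in replicate 1). Replicate 4 at 0 h stood low for AMT1-2 (48.1 FPKM against 87.6 to 94.9 FPKM), nitrite reductase (11.8 FPKM) and MCM4 (4.70 FPKM).

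Replicate 3 at 3 h stood apart for 5 genes. It was high for the vacuolar invertase evm_TU_scaffold_1659_242 (6.88 FPKM against 1.71 to 1.93 FPKM) and the Rubisco small subunit (77.4 FPKM against 22.3 to 26.9 FPKM). It was low for caryophyllene synthase (26.2 FPKM against 83.7 to 92.3 FPKM), the glycine-rich gene evm_TU_scaffold_735_38 (1140 FPKM against 4570 to 5058 FPKM) and evm_TU_scaffold_1663_43 (800.1 FPKM against 3398 to 3817 FPKM). Over all tested genes this library correlated with the other flooded libraries at r from 0.909 to 0.922, close to its group. Replicate 4 at 3 h stood high for a PHOS34 gene (evm_TU_scaffold_1008_453, 437 FPKM against 327 to 341 FPKM).

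For 22 of the 125 genes named or kept as candidates, the change at 3 h differed between EWT and CK by the interaction term, given here as the log2 difference, EWT minus CK. Above 0 were SAUR76 (5.62), calcium ATPase 2 (3.30), LBD41 evm_TU_scaffold_24_295 (3.22), CML38 (2.42), stearoyl-ACP desaturase 6 (2.41), the ADH1 genes evm_TU_scaffold_6424_13 (2.34) and evm_TU_scaffold_1473_324 (1.16), ERF071 (1.63), wound-induced protein 1 (1.57), XTH2 (1.46), laccase-7 (1.34), trehalose-phosphate phosphatase D (1.26) and trehalose-phosphate synthase 7 (1.06). Below 0 were CYP78A5 (-4.19), TIP1-2 (-3.41), the enolase evm_TU_scaffold_803_41 (-3.33), XTH32 (-2.71), AMT1-2 (-2.09), the class II small heat shock protein evm_TU_scaffold_18_409 (-2.03), ACC oxidase 1 evm_TU_scaffold_7093_110 (-1.37), phosphofructokinase 3 (-1.08) and EIN3-binding F-box protein 2 (-1.06). With libraries scaled to all fragments, 20 of the 22 were still called in the same direction, the exceptions being laccase-7 and trehalose-phosphate synthase 7. In CK the desaturase went from a mean of 0.676 to 949 FPKM. The ADH1 genes went from 0.672 to 162 FPKM (evm_TU_scaffold_6424_13) and from 12.6 to 1525 FPKM (evm_TU_scaffold_1473_324). The desaturase and both ADH1 genes thus ended at like levels in both cultivars and started lower in EWT. The enolase started at a mean of 0.57 FPKM in CK, so little fall could be measured there.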

How the results depend on the processing

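The count of 19356 genes called in EWT at 3 h stayed within 1.5 times under other pseudocounts, no filter, other scalings, weights and fits (14296 to 26174). It was 11323 with a filter on the mean FPKM over the 40 libraries and 9688 at a 4-fold limit. The share of higher calls was 41.4% and moved to 55.2% with that filter, 49.9% with a pseudocount of 0.01, 33.8% with libraries scaled to all fragments and 30.9% with voom. Leaving out single libraries gave 16807 to 18926 genes. The count for the difference from CK (4517) was 12385 at an unadjusted p and 2427 at a 4-fold limit, its share toward EWT moved from 54.8% to 47.6%, 48.4% and, with all-fragment scaling, 45.4%, with 3358 to 4591 when single libraries were left out. The count for 12 h against 3 h (24458) was 15969 with a pseudocount of 1 and 10998 at a 4-fold limit, with 21529 to 23490 when single libraries were left out, and its share of higher calls moved from 49.9% to 29.3% with all-fragment scaling (all-gene median -0.37) and 60.7% with a pseudocount of 1.

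A replicate block gave 18067, 4469 and 24392 genes for the 3 comparisons. The same replicate number at 0 h and 3 h shared little (correlations of deviations from -0.04 to 0.04), so the numbers do not pair the libraries. With the block the calls for wound-induced protein 1, fructokinase-2, aldolase 6, NRT3.1, TIP1-1, evm_TU_scaffold_1663_43 and evm_TU_scaffold_737_533 were lost, the last 3 also with the 8 libraries alone.

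Of the 125 single genes, 112 were called, and 99 of these kept their call under all of the 17 settings. Of 2117 further values of single genes, 29 lost and 10 gained a call. None of the called genes turned. CESA3 (evm_TU_scaffold_610_22), uncalled at 0.05, was at -0.10 with all-fragment scaling, -0.12 with voom and -0.051 to 0.14 when single libraries were left out. S27-2 (evm_TU_scaffold_886_87), uncalled at 0.12, was at -0.037 and -0.052 with the same scaling and voom. Of 99 family medians, 32 changed sign under at least 1 setting. In the simulation with n = 4, few 2-fold changes were recovered. It left 89317 of 89517 genes unchanged, which makes the adjusted p harder to pass than in the real comparison. A true 2-fold change also had to be estimated at 2-fold or more to be called. The simulation therefore does not give the sensitivity of the real comparison. Families with few calls may still hold small changes that were not called.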

Other observations

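The families above leave out many groups of genes with a shared protein name. Among names with at least 4 tested genes, picked here after their values were seen, further groups had most of their members called in 1 direction. Higher at 3 h were 12 of 12 genes matched to EP1-like glycoprotein 3 and 10 of 10 to EP1-like glycoprotein 4 (secreted lectin-domain proteins), 9 of 9 to the hexose carrier HEX6, 13 of 13 to the WAT1-related protein At4g30420 (membrane transporters of the plant drug and metabolite exporter type) and 18 of 22 to stem-specific protein TSJT1. F-box/kelch-repeat proteins, which select proteins for degradation, were higher in 12 of 13 genes matched to At1g15670 and 9 of 11 matched to At1g80440. Of 22 genes matched to PHOSPHATE-INDUCED 1, a cell wall protein family of tobacco, 19 were higher. All 6 genes matched to the spindle checkpoint protein MAD2 were higher, although the replication and kinesin genes had more members lower.

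Lower at 3 h were several further groups. Galactinol synthase 2, the first enzyme of the raffinose sugars, fell in 16 of 20 genes. Protein phosphatase 2C 37, a negative regulator of abscisic acid signalling in Arabidopsis, fell in 7 of 7, beside the lower 9-cis-epoxycarotenoid dioxygenases and the higher PYL4 genes. The receptor kinase TDR, which keeps the vascular cambium of Arabidopsis dividing, fell in 9 of 9. Fatty acid and sterol genes were also among them, with delta-12 desaturase FAD2 lower in 11 of 13 genes and delta-24 sterol reductase in 8 of 11. Benzyl alcohol O-benzoyltransferase, which makes volatile benzoates, was lower in 22 of 29 genes. Thiamine thiazole synthase, an early step of vitamin B1 synthesis, was lower in 6 of 6. These counts stand beside 8.96% higher and 12.7% lower over all tested genes, and copies of one gene are not independent.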
